A study of Mus musculus with 6 samples.

Results

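The genes described here are 10 transcripts of the collecting duct principal cell that move water and sodium: the aquaporins Aqp2, Aqp3 and Aqp4, the vasopressin receptor gene Avpr2, the epithelial sodium channel genes Scnn1a, Scnn1b and Scnn1g, the sodium pump regulator gene Fxyd4, the mineralocorticoid receptor gene Nr3c2 and the steroid dehydrogenase gene Hsd11b2. They were taken by symbol, and all 10 were found among the 18421 genes of the authors' deposited table. Renal tissue was compared between 3 Dkk3-/- mice (Dkk3 knockout) and 3 C57Bl/6 mice (Dkk3 wildtype), 6 samples in all. It was taken 7 days after UUO (unilateral ureteral obstruction, the tying off of 1 ureter, which dams urine back into the kidney). Both genotypes carry C57Bl/6 as the labelled background strain, every kidney was obstructed, and sex and age are not given. The table holds 1 test result per gene and no value per sample, so the level in each mouse, the depth of each library and any overlap between the groups could not be shown.

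Principal cells line the connecting tubule and collecting duct, where the final volume and salt content of urine are set. Vasopressin binds its V2 receptor on these cells and raises cAMP, which drives the Aqp2 water channel into the apical membrane and increases its transcription, and water then leaves through Aqp3 and Aqp4 on the blood side. Sodium enters through the epithelial sodium channel, a complex of alpha, beta and gamma subunits, and is pumped out by the sodium pump, while aldosterone, acting through the mineralocorticoid receptor, increases this transport. Ureteral obstruction is known to lower collecting duct aquaporins and sodium transporters in rodents. Without unobstructed kidneys in the comparison, the values below concern only the difference between genotypes under obstruction.

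All 10 transcripts were listed below 0 in the knockout, and 7 of them fell at an adjusted p under 0.05 by edgeR's likelihood-ratio test as the authors' deposited table gives it. The same rule called 0.890% of the 18421 genes lower and 2.06% in either direction, and 47.7% were listed below 0. No principal cell gene was called higher, where 1.17% of all genes were, and 9 of the 10 had an unadjusted p under 0.05 on the lower side, where 4.71% of all genes did. The median log2 fold change of the 10 was -0.53, a 1.44-fold lower level, against a median of 0.01 for all genes. In RNA of renal tissue with all its cell types, fewer cells that express these genes and less of these transcripts per cell cannot be told apart. The calls rest on the form of the test: when an F distribution (14 degrees of freedom) replaced the chi-square, 1 of the 10 was called, Aqp3, and 0.223% of all genes were called lower. Leaving out chromosome 7 as well, none of the remaining 8 was called, and 0.0529% of genes were. With a fold change of at least 1.5 also required, 3 were called, Aqp3, Aqp4 and Hsd11b2, beside 0.722% of all genes.

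**Figure D1:**
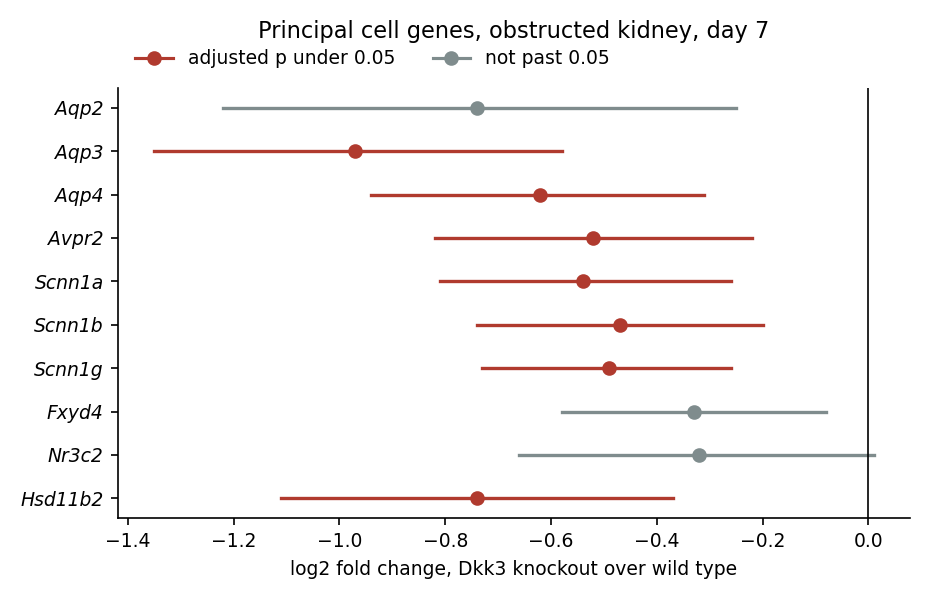
Log2 fold change (x axis, knockout over wild type) of each principal cell gene (y axis), with bars for the approximate 95% interval (1.96 standard errors) and red for an adjusted p under 0.05. All 10 points lie left of 0, from -0.97 for Aqp3 to -0.32 for Nr3c2, and only the bar of Nr3c2 crosses 0.

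Stretches of the genome just before 4 of these genes are shown because they include the water channel gene that vasopressin is known to induce (Aqp2), the gene with the lowest fold change (Aqp3), and the pair of channel genes that lie side by side (Scnn1g and Scnn1b). Each is the 250 bases before the RefSeq start in the GRCm38.p6 build, written 5′ to 3′ on the strand of the gene. The positions are chr15:99578806-99579055 (plus strand) for Aqp2, chr4:41098184-41098433 (minus strand) for Aqp3, chr7:121734229-121734478 (plus strand) for Scnn1g and chr7:121864788-121865037 (plus strand) for Scnn1b. Capitals mark searched motifs, on either strand. These were TGACGTCA, the cAMP response element, and its shorter core of TGACG, which is part of it. Further motifs were GATAA for GATA factors, then AGAACA as the short motif of steroid receptors. The last were TATAAA for the TATA box, then GGGCGG for the GC box.
Aqp2: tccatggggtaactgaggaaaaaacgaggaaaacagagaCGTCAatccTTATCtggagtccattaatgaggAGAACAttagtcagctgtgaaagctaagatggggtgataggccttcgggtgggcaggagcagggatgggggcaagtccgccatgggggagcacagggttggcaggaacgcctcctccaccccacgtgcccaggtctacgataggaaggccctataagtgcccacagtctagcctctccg
Aqp3: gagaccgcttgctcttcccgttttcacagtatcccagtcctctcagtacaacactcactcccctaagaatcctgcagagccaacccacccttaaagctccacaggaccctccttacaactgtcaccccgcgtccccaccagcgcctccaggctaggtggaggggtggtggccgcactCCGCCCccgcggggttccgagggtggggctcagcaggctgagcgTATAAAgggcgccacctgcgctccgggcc
Scnn1g: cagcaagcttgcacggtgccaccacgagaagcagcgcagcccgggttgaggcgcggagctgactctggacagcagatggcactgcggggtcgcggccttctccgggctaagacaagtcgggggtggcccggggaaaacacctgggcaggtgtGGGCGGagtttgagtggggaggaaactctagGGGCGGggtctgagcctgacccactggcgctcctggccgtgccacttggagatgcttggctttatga
Scnn1b: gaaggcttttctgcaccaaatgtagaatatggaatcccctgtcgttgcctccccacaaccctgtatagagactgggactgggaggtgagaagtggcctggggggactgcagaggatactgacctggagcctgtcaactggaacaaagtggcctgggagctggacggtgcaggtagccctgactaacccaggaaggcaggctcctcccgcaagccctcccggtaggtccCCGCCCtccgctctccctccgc
RefSeq sequence was matched for 7 of the 10 genes, all but Aqp4, Scnn1a and Hsd11b2. The short cAMP core was found in 1 of the 7, Aqp2, where it lies on the opposite strand 211 bases before the start, and in 17.8% of 32851 promoters of the same length. The full element was found in none of the 7 and in 1.55% of all promoters. The GATA motif was found in Aqp2 and Avpr2 and in 22.6% of all promoters, and the steroid receptor motif in the same pair and in 16.1% of all promoters. The TATA motif was in Aqp3, on its own strand 29 bases before the start, and in Avpr2, on the opposite strand 45 bases before. It was found on either strand in 12.4% of all promoters. Aqp3, Scnn1b, Scnn1g, Fxyd4 and Nr3c2 held the GC box (32.7% of all promoters). No motif was found in all 7. These matches describe letters and do not show binding.

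Aqp3, the basolateral channel through which water leaves the cell, had the lowest fold change of the 10. In the authors' deposited table Aqp3 (ENSMUSG00000028435, chromosome 4, 41092722 to 41098183, minus strand) fell by 0.97 log2 units with an adjusted p of 1.62e-04, from edgeR's likelihood-ratio test. This left the knockout at 51.2% of the wild-type level, with an approximate standard error of 0.195 and a 95% interval from -1.35 to -0.58 on the log2 scale. Assuming that the average of 31.1 CPM (read counts scaled to library size) that the authors' deposited table lists is the mean of 2 equal groups, the wild type stood at about 41.1 CPM of Aqp3 and the knockout at about 21.0 CPM. Of 3050 genes within 0.5 log2 units of the average level of Aqp3, 0.393% were listed at as low a fold change or lower. Ranked by p in the authors' deposited table, Aqp3 was number 80.

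Aqp2, the vasopressin-regulated water channel of the apical membrane, had a lesser fall than Aqp3 in its point value, with a wider error. Its log2 fold change was -0.74 in the authors' deposited table (Aqp2, ENSMUSG00000023013, chromosome 15, 99579055 to 99584547, plus strand), with an adjusted p of 0.0928 in edgeR's test. The corresponding group levels of Aqp2 were about 97.8 CPM in the wild type and 58.6 CPM in the knockout, or 59.9% of wild type. The approximate standard error of Aqp2 was 0.247, the largest of the 10 genes and 2.07 times the median of 0.119 for 2386 genes of like level. Aqp2 was called at an adjusted p under 0.1, as were 1.33% of all genes on the lower side. Hsd11b2, by comparison, had the same log2 fold change of -0.74 to 2 decimals and passed the 0.05 threshold in the authors' deposited table, with a standard error of 0.189. Whether single mice widened the error of Aqp2 cannot be seen without values per sample.

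Aqp4, the second basolateral water channel, also fell. The authors' deposited table lists Aqp4 (ENSMUSG00000024411, chromosome 18, 15389496 to 15410982, minus strand) at a log2 fold change of -0.62 with an adjusted p of 0.0108 in edgeR's test. Its group levels were about 17.7 CPM in the wild type and 11.5 CPM in the knockout, or 64.9% of wild type, with an interval from -0.94 to -0.31 on the log2 scale. The intervals of all 3 water channels overlap between -0.94 and -0.58. Differences in fold change between Aqp2, Aqp3 and Aqp4 were not tested.

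Avpr2, which encodes the V2 vasopressin receptor, was lower by a smaller amount. A log2 fold change of -0.52 was listed for Avpr2 (ENSMUSG00000031390, chromosome X, 73892102 to 73895502, plus strand) in the authors' deposited table, with an adjusted p of 0.0380 in edgeR's test. The approximate levels were 28.2 CPM in the wild type and 19.7 CPM in the knockout, or 69.9% of wild type, with an interval from -0.82 to -0.22. This value is uncertain, because 2347 exon bases of Avpr2, 81.3% of its 2886, are also exon of Arhgap4 on the opposite strand in the GENCODE annotation. The use of strand in counting is not given in the sources used here, so reads of the 2 genes may have been pooled, split or dropped. Arhgap4 averaged 37.0 CPM and had a log2 fold change of -0.17, with an adjusted p of 0.757 by edgeR, as the authors' deposited table lists it. With the scores divided by their inflation factor of 1.09, which left 5 of the 10 genes called and 0.689% of all genes called lower, Avpr2 no longer passed (edgeR's score, adjusted p = 0.0640).

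The 3 subunits of the epithelial sodium channel fell by nearly equal amounts. Scnn1a, the alpha subunit needed for the channel to reach the membrane (ENSMUSG00000030340, chromosome 6, 125320659 to 125344943, plus strand), fell by 0.54 log2 units, per the authors' deposited table (edgeR, adjusted p = 0.0105). For Scnn1g, the gamma subunit (ENSMUSG00000000216, chromosome 7, 121734479 to 121768475, plus strand), the drop in the authors' deposited table was -0.49 (edgeR, adjusted p = 0.00491). Scnn1b, the beta subunit (ENSMUSG00000030873, chromosome 7, 121865038 to 121918514, plus strand), was at -0.47 in the authors' deposited table (edgeR, adjusted p = 0.0380). The 3 values span 0.07 on the log2 scale, less than the smallest of their standard errors, 0.120, and every interval covers the range from -0.73 to -0.26. A test of whether they differ from each other was not possible without values per sample.

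In approximate group levels, Scnn1a went from 71.7 CPM in the wild type to 49.5 CPM in the knockout. Scnn1b stood at about 62.6 CPM against 45.2 CPM, and Scnn1g at about 67.8 CPM against 48.2 CPM. The knockout thus held 69.0%, 72.2% and 71.2% of the wild-type level of Scnn1a, Scnn1b and Scnn1g. Scnn1b did not pass once the scores were divided by the inflation factor (edgeR's score, adjusted p = 0.0640), while Scnn1a (0.0205) and Scnn1g (0.0103) still had an adjusted p under 0.05 there.

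**Figure D2:**
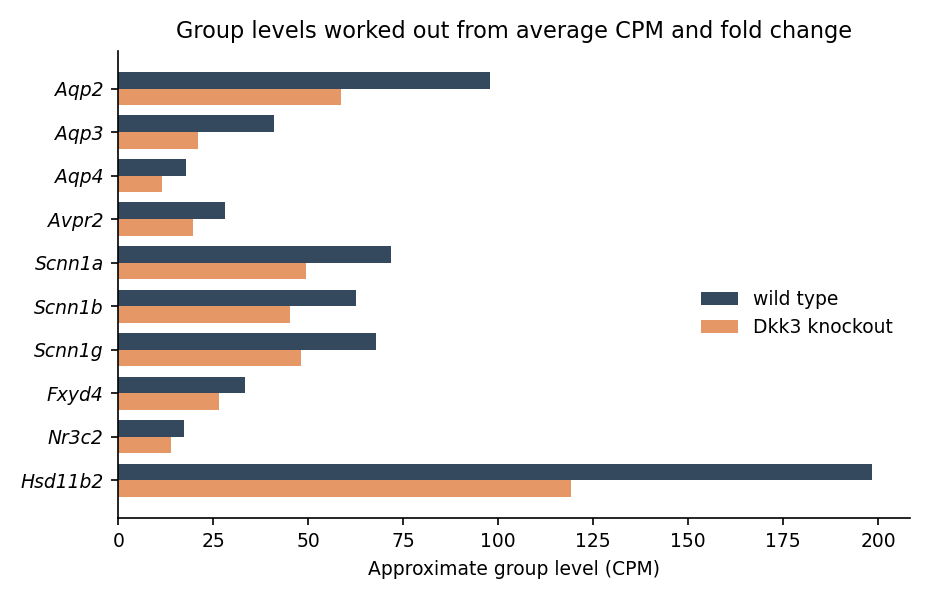
Approximate level in CPM (x axis, from 0) of each principal cell gene (y axis) in wild type (dark bars) and Dkk3 knockout (light bars), worked out from the average CPM and the fold change, with no error bars because no value per sample was used. The longest pair is Hsd11b2, at 198.4 CPM and 119.1 CPM, and the light bar is shorter in all 10 pairs.

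Scnn1g and Scnn1b are neighbours on the chromosome that carries Dkk3. Scnn1g begins 9.58 Mb and Scnn1b 9.71 Mb from Dkk3, with a gap of 96.6 kb between them. Of 135 genes at 1 CPM or more within 10 Mb of Dkk3, these 2 included, 17 (12.6%) were called by edgeR as the authors' deposited table has it, 9 lower and 8 higher. On the whole of chromosome 7, 86 of 1075 such genes were called, and on the other chromosomes 245 of 13188 (1.86%). Within 1 Mb of the pair, 1 of 16 other genes was called, Polr3e, an RNA polymerase III subunit gene, listed in the authors' deposited table at -0.83 on the log2 scale (edgeR, adjusted p = 0.0433). Cog7, a Golgi complex gene whose span overlaps that of Scnn1b with no exon base in common, stood at -0.12 in the authors' deposited table (edgeR, adjusted p = 0.814). An effect of alleles linked to the deleted gene and an effect of Dkk3 loss cannot be told apart for Scnn1b and Scnn1g. The other 8 members lie elsewhere, and 5 of them, Aqp3, Aqp4, Avpr2, Scnn1a and Hsd11b2, were called with chromosome 7 left out, beside 0.535% of the remaining genes. Their 8 log2 fold changes had a median of -0.58.

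**Figure D3:**
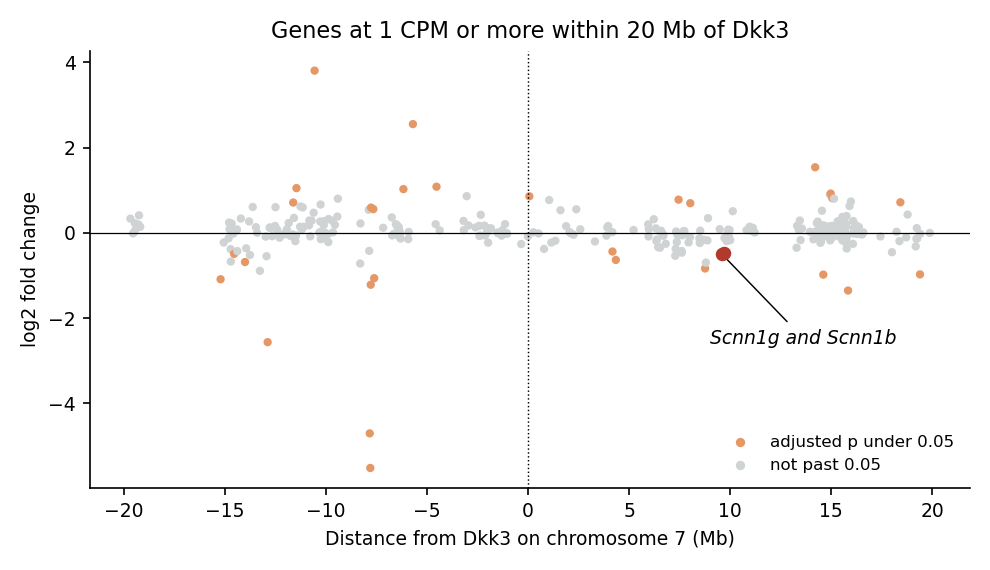
Log2 fold change (y axis, knockout over wild type) of genes at 1 CPM or more against their distance from Dkk3 (x axis, Mb), with orange for an adjusted p under 0.05, grey for the rest and red for Scnn1g and Scnn1b. The pair lies 9.58 and 9.71 Mb from Dkk3 at -0.49 and -0.47, among called genes of both directions.

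Hsd11b2 had the largest fall in CPM and Nr3c2 did not pass the test. Hsd11b2 encodes the dehydrogenase that inactivates glucocorticoids and so keeps the mineralocorticoid receptor open to aldosterone. The authors' deposited table gives Hsd11b2 (ENSMUSG00000031891, chromosome 8, 105518755 to 105523988, plus strand) a log2 fold change of -0.74 and an adjusted p of 0.00931 in edgeR's test. Levels of Hsd11b2 were about 198.4 CPM in the wild type and 119.1 CPM in the knockout, 60.0% of wild type, with an interval from -1.11 to -0.37. Among 1133 genes of like level, 0.530% had as low a fold change as Hsd11b2 or lower. Nr3c2, the mineralocorticoid receptor gene itself (ENSMUSG00000031618, chromosome 8, 76899442 to 77245012, plus strand), stood at -0.32 in the authors' deposited table with an adjusted p of 0.500 in edgeR's test. Its approximate levels were 17.4 CPM and 13.9 CPM, and its interval from -0.66 to 0.01 includes both no difference and a drop as large as that of Aqp4.

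Fxyd4, a small membrane protein that modulates the sodium pump in the collecting duct, did not pass either. Fxyd4 (ENSMUSG00000004988, chromosome 6, 117933559 to 117937692, minus strand) had a log2 fold change of -0.33 in the authors' deposited table, an unadjusted p of 0.00998 and an adjusted p of 0.199 in edgeR's test. About 33.4 CPM in the wild type stood against 26.6 CPM in the knockout, or 79.6% of wild type, with an interval from -0.58 to -0.08.

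Per length of the longest annotated coding transcript, average levels over both genotypes ran from 86.3 CPM per kb for Hsd11b2 to 2.64 CPM per kb for Nr3c2. Aqp2 came next to Hsd11b2 at 55.1 CPM per kb, followed by Fxyd4 at 25.0, Scnn1b at 21.8, Scnn1g at 19.4, Aqp3 at 17.6 and Scnn1a at 17.3 CPM per kb. Avpr2 was at 8.60 and Aqp4 at 2.88 CPM per kb. The spread of these levels over samples is unknown, so which neighbours in this order differ was not tested. The order depends on the transcripts used: with the shortest coding transcript, Nr3c2 came to 57.8, Aqp4 to 32.1 and Scnn1b to 123.3 CPM per kb, while Aqp2, Aqp3, Scnn1g and Hsd11b2 have 1 coding transcript each and kept their values.

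**Figure D4:**
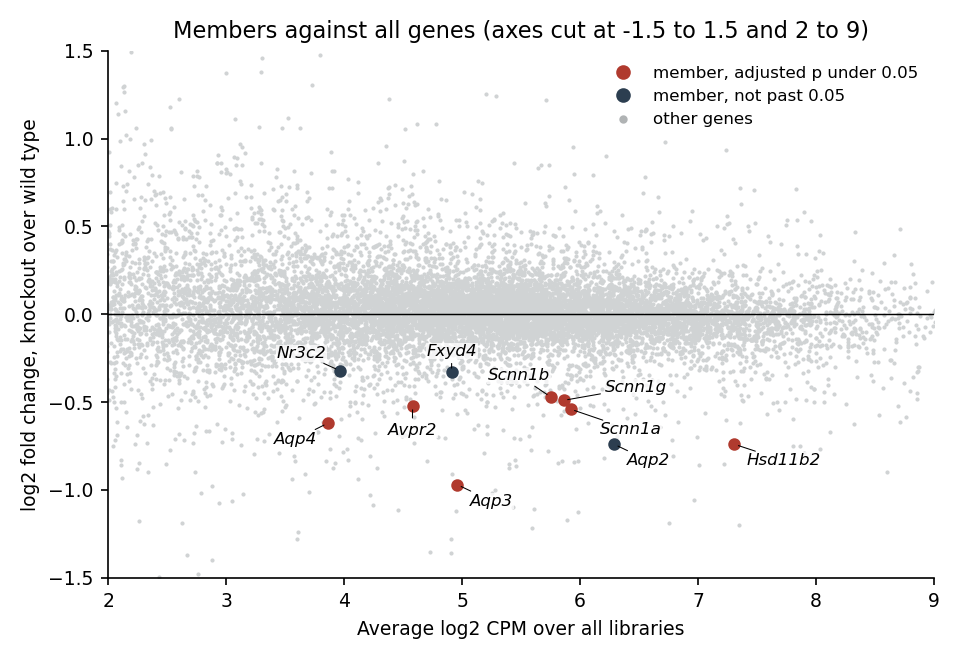
Log2 fold change (y axis, knockout over wild type, shown from -1.5 to 1.5) against average log2 CPM over all libraries (x axis, shown from 2 to 9) for all genes (grey), with principal cell genes in red for an adjusted p under 0.05 and dark blue for the rest. The 10 genes range in average log2 CPM from 3.86 (Aqp4) to 7.31 (Hsd11b2), all on the lower side of the cloud.

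The other genes of the vasopressin signal chain had values near 0 on balance. Of 23 genes of vasopressin and cAMP signalling, edgeR called none, the unadjusted p was under 0.05 for 1, and the median log2 fold change was -0.04. Of all 18421 genes, 2.06% were called and 1957 had an unadjusted p under 0.05, so no call among 23 is close to the background and is not a result about the list. That 1 was the oxytocin receptor gene Oxtr, averaging 1.09 CPM and at -0.99 in the authors' deposited table (edgeR, adjusted p = 0.143). The next smallest p in the list was that of the V1a vasopressin receptor gene Avpr1a, at 0.35 in the authors' deposited table (edgeR, adjusted p = 0.757). Adcy6, the adenylyl cyclase that makes cAMP in these cells, was at -0.07 with a standard error of 0.123, and the urea transporter gene Slc14a2 of the inner medulla at 0.14 with a standard error of 0.288. The stimulatory G protein gene Gnas was at -0.04 (standard error 0.145). All cell types of the renal tissue were measured together. The values of these 23 genes therefore do not show the level in principal cells alone.

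Among 9 other aquaporins 6 were listed below 0 and 1 was called lower by edgeR. That 1 was Aqp6, the intracellular aquaporin of intercalated cells, the acid-base cells that lie among the principal cells. Aqp6 was listed at -0.53 in the authors' deposited table, with an adjusted p of 0.00533 in edgeR's test. Aqp1, the water channel of the proximal tubule and thin limb, averaged 463.2 CPM and stood at -0.45 in the authors' deposited table (edgeR, adjusted p = 0.304). The unadjusted p was under 0.05 on the lower side for 3 of the 9, Aqp6, Aqp1 and Aqp11, and 1 of 9 called stands beside 0.890% of all genes called lower. The list median was -0.42, and 4 of the 9 reached 1 CPM. Aqp6 was not called when a fold change of at least 1.5 was required, nor with the F distribution.

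Of 19 genes of the aldosterone response and of sodium channel control, edgeR called none, beside 2.06% of all genes. The unadjusted p was under 0.05 for 1, on the lower side, where it was for 4.71% of all genes. The smallest p was that of Usp2, a ubiquitin protease gene induced by aldosterone, which the authors' deposited table lists at -0.83 (edgeR, adjusted p = 0.0950). Sgk1, the aldosterone-induced kinase that keeps the channel at the membrane, was at -0.57 in the authors' deposited table (edgeR, adjusted p = 0.540), with a wide standard error of 0.314. Tsc22d3, also induced by corticosteroids, was at -0.44 (standard error 0.318), and Nedd4l, the ubiquitin ligase that removes the channel, at -0.04 (standard error 0.132). The list median was -0.04. For Sgk1 and Tsc22d3 a drop as large as that of the channel subunits lies within the error, and for Nedd4l it lies outside 1.96 standard errors.

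Proteases that activate the sodium channel by cleavage and their inhibitors gave edgeR no call among 8, with an unadjusted p under 0.05 for 2 and a median of -0.03. Those 2 were on the lower side, where 4.71% of all genes had such a p. Prss8, the prostasin gene, was at -0.36 in the authors' deposited table (edgeR, adjusted p = 0.268) and Tmprss2 at -0.26 (edgeR, adjusted p = 0.465). Of 12 genes of the sodium pump, the FXYD family and potassium exit, edgeR called none, 4 lower and 1 higher had an unadjusted p under 0.05, and the median was -0.15. Of all 18421 genes, 868 lower and 1089 higher had such a p, and 2.06% were called in either direction. No call among 8 or among 12 genes is close to that share and is not a result about these lists. The basolateral potassium channel gene Kcnj10 was at -0.46 in the authors' deposited table (edgeR, adjusted p = 0.111). Fxyd5, a relative of Fxyd4, was at 0.46 there (edgeR, adjusted p = 0.121).

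**Figure D5:**
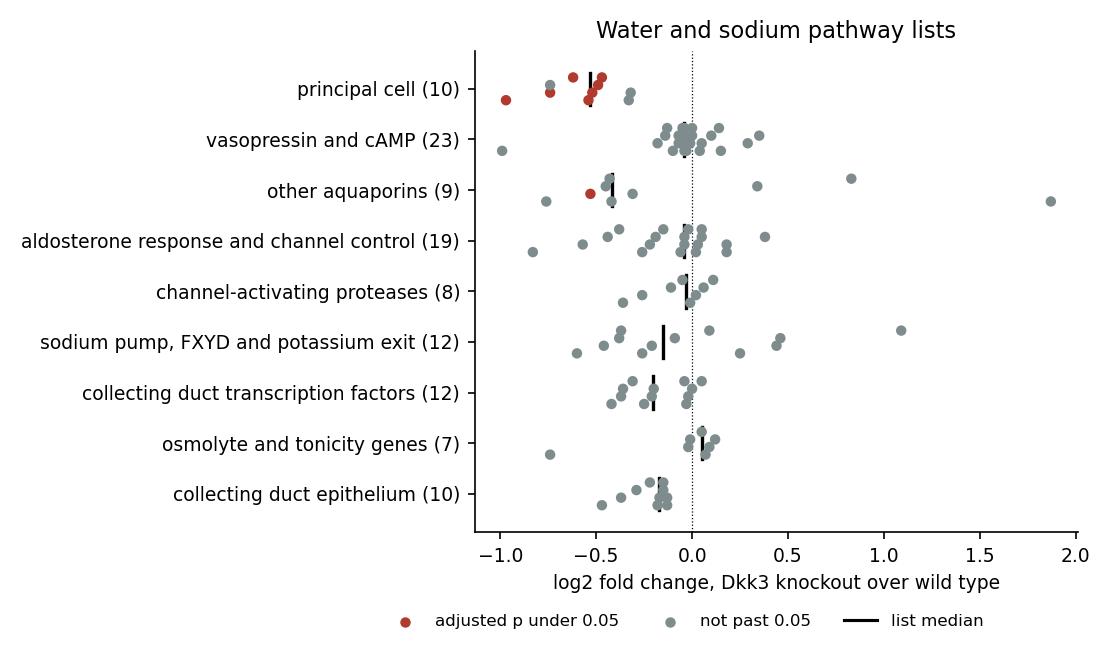
Log2 fold change (x axis, knockout over wild type) of each gene in the principal cell list and in 8 lists of related genes (y axis, number of genes in brackets), with red for an adjusted p under 0.05 and a black bar for the median of the list. The medians of the related lists lie between -0.42 and 0.05, against -0.53 for the 10 principal cell genes.

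Transcription factor genes of the collecting duct were mostly listed below 0 by small amounts. Of 12 such genes 11 were below 0, edgeR called none, the unadjusted p was under 0.05 for 4, and the median was -0.20. Of all genes, 47.7% were below 0 and 4.71% had an unadjusted p under 0.05 on the lower side by edgeR. Ehf, an epithelial ETS factor gene, was at -0.42 in the authors' deposited table (edgeR, adjusted p = 0.0890), and Gata3, known to act in duct development, at -0.37 (edgeR, adjusted p = 0.262). General duct epithelium genes, keratins, claudins and cadherins that other epithelia express too, were below 0 in 10 of 10, with a median of -0.17, no call by edgeR and an unadjusted p under 0.05 for 3. In the authors' deposited table Krt7 was at -0.37 (edgeR, adjusted p = 0.129) and Krt19 at -0.47 (edgeR, adjusted p = 0.261). The 7 osmolyte and tonicity genes, which respond to the salt concentration of the medulla, had a median of 0.05. Of these 7, edgeR called none, and the unadjusted p was under 0.05 for none. By the same rule 2.06% of all genes were called. No call among 12, 10 or 7 genes is close to that share and is not a result about these lists. Slc6a12 averaged 0.580 CPM and was at -0.74 (edgeR, adjusted p = 0.659), and Cryab at 0.12 (edgeR, adjusted p = 0.863), both in the authors' deposited table.

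The falls of the principal cell genes came with shifts in markers of other cell types in the same kidneys. These calls stand beside 0.890% of all genes called lower and 1.17% called higher, with 47.7% of all genes listed below 0. Intercalated cell markers were all 12 below 0, with 7 called lower by edgeR and a median of -0.82. Urothelial markers were all 7 below 0 with 3 called lower and a median of -2.16. The most abundant of these 7, Krt20, averaged 109.5 CPM and stood at -0.02. The uroplakins that define urothelium were scarce, with Upk2 lowest at an average of 1.99 CPM. Aqp3 is also known in urothelium. Proximal tubule markers were below 0 in 9 of 10, with 1 called lower and a median of -0.41. Thick ascending limb markers were all 7 below 0, with 0 called (2 at an unadjusted p under 0.05, edgeR) and a median of -0.32. Connecting and distal convoluted tubule markers were below 0 in 5 of 8, with 2 called lower and a median of -0.30. T cell markers were all 6 above 0, with 4 called higher and a median of 1.54. Of the macrophage markers 8 of 8 were above 0, with a median of 0.43 and none called (4 at an unadjusted p under 0.05, edgeR). Podocyte and endothelial markers, 6 each, were all above 0, with medians of 0.15 and 0.09. They had no call by edgeR and an unadjusted p under 0.05 for none. Of 8 fibroblast and pericyte markers 5 were above 0, with a median of 0.22, no call by edgeR and 1 at an unadjusted p under 0.05. With the F distribution the calls went from 7 to 2 for intercalated cell, 3 to 0 for urothelial, 1 to 0 for proximal tubule, 2 to 1 for connecting and distal convoluted tubule and 4 to 2 for T cell markers. With chromosome 7 left out as well, 1 intercalated cell marker and 0 of the others were called. The part of these shifts in the principal cell result was not tested.

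The same calls underlie the authors' test of 9062 Gene Ontology terms for over-representation, which therefore adds no separate evidence. Water homeostasis in multicellular organisms had 5 lower genes of 19 and none higher in the authors' deposited table (adjusted p = 7.91e-04). Sodium ion homeostasis had 4 lower of 14 (adjusted p = 0.00427) and water transport 4 lower of 16 (adjusted p = 0.00622), also per the authors' deposited table. In the same over-representation test, water homeostasis had 5 lower of 23 (adjusted p = 0.00173). Water channel activity had 3 lower of 11 (adjusted p = 0.0373) and water transmembrane transporter activity 3 lower of 12 (adjusted p = 0.0428). The remaining related terms did not pass there. Among them were renal water transport with 2 lower of 6 (adjusted p = 0.142) and sodium ion transport with 4 lower and 4 higher of 177 (adjusted p = 1.00).

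Dkk3 itself, the deleted gene, averaged 23.2 CPM and was at -4.43 in the authors' deposited table (edgeR, adjusted p = 2.98e-67), and its sign set the direction in which all values were read. Because the knockout and wild-type mice may come from separate colonies, which the labels do not say, an effect of colony and an effect of Dkk3 loss cannot be told apart.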

How the data were processed

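RNA was measured in renal tissue of 3 Dkk3 knockout and 3 wild-type mice, as the labels state. From 1 µg of RNA a sample, 50 nt single reads were taken in pools of 10 on 3 lanes. Both mm10 and edgeR are named in the submitters' processing notes. Not given in the sources used here are the aligner, counting, strand and filters. Per the file headers, the deposited table holds 18421 genes with their log2 fold change, average log2 CPM, likelihood-ratio score, p-value and adjusted p-value, and a second deposited sheet holds numbers of genes and p-values per Gene Ontology term. The deposited p-values equalled chi-square p-values of the score (1 degree of freedom) to a relative 0.0001. Depth is unknown.

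The authors' test, called at an adjusted p under 0.05 over all genes, was used because no counts per sample were at hand, so the quasi-likelihood fit foreseen for counts was not run. Standard errors were approximated as the size of the log2 fold change over the square root of the score, and group levels by taking the average CPM as the mean of 2 equal groups. Positions came from GENCODE vM21 (GRCm38, the assembly of mm10), which placed 18314 genes, and promoters from RefSeq (GRCm38.p6). Exon overlaps and shared stretches of 50 nt were counted in the annotation. As alternatives, calls were repeated at a threshold of 0.1, with a fold change of 1.5, for genes at 1 CPM or more, with the inflation factor, with an F distribution (14 degrees of freedom, 4 residual and 10 assumed), after centring, without chromosome 7 and, chosen after seeing the data, the F distribution with chromosome 7 left out and windows of 5 and 20 Mb.

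The genes, the 8 pathway lists and the 11 marker lists were chosen with earlier results of these data known. The rule named all 10 members, Dkk3, called genes of each list (up to 6, otherwise the 2 with the smallest p), called genes within 1 Mb of a member on chromosome 7, and matching ontology terms. The rule also covers the marker lists, which are given here as counts. Adcy6, Slc14a2, Gnas, Tsc22d3, Nedd4l, Aqp1, Aqp11, Arhgap4, Cog7, Upk2 and Krt20 were named after their values were seen. The adjustment was tested on simulated scores. These were drawn with normal errors of known size, so they could not show whether the chi-square suits 3 mice a group. Python 3.11.15, pandas 2.3.3, numpy 2.4.6, scipy 1.17.1 and matplotlib 3.10.9 were used.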

Additional observations from a re-analysis of the deposited data

How the results depend on the processing

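Centring on the median was the only alternative that changed the fold changes themselves, and all 10 stayed below 0 there. The count of 7 members called lower went to 3 with a fold change of at least 1.5, 1 with the F distribution and 0 with the F distribution and chromosome 7 left out, where 7 of the remaining 8 stood at an unadjusted p under 0.05 by edgeR as deposited. It stayed within 1.5 times of 7 under the other alternatives. The 379 genes called in all became 578 at a threshold of 0.1, 242 without chromosome 7, 81 with the F distribution and 21 with both of the last. The 1 other aquaporin called became 0 with a fold change of at least 1.5, with the F distribution and with the F distribution without chromosome 7. At a threshold of 0.1 the aldosterone list had 1 call and the transcription factor list 1, both lists having 0 otherwise. The 2 members within 10 Mb of Dkk3 became 0 within 5 Mb and stayed 2 within 20 Mb. The F distribution gives larger p-values by its construction, and 10 prior degrees of freedom were assumed, not estimated. No paired analysis was possible because the table holds no value per sample, and for the same reason no replicate was left out. Unknown depth sets how small a difference could be called.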
